A study of Mus musculus with 8 samples.

Results

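The genes described here make, conjugate and move bile acids in the liver, with the nuclear receptors that control them. They were chosen by name, 31 in all, and 30 were measured among 22180 genes on arrays of mouse liver. The remaining gene, Slc51b, shares its probe set with another gene symbol and was not analysed. Each array held the liver RNA of a single C57BL/6N mouse aged 27 days. The 4 knockout mice had 2 floxed Sco1 alleles and a Cre transgene under the albumin promoter, a promoter active in hepatocytes and in the fetal cells from which hepatocytes and cholangiocytes arise. Which cells lost the gene was not tested. The 4 control mice, given as wild-type by their source label, were of 2 kinds by their genotype labels: mice 1 and 3 had the Cre transgene with 1 floxed Sco1 allele, and mice 2 and 4 had 2 floxed alleles and no Cre. All 8 mice therefore carried a floxed allele, and Cre together with 2 of them was found in the knockout mice only. Whether control mice 1 and 3 had lost their 1 floxed copy through Cre was not tested. The titles and the study text give every control 2 floxed alleles and name no Cre, which the genotype labels of mice 1 and 3 contradict on both counts. SCO1 is a mitochondrial copper chaperone needed to assemble cytochrome c oxidase.

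Bile acids are made from cholesterol in hepatocytes. The classic route opens with the rate-limiting hydroxylase Cyp7a1, and the acidic route opens with the mitochondrial hydroxylase Cyp27a1, whose oxysterol products are then hydroxylated by Cyp7b1. Peroxisomal enzymes shorten the side chain, Slc27a5 activates the acid, and Baat joins it to taurine or glycine. Abcb11, the bile salt export pump, secretes the conjugate into bile, and transporters of the sinusoidal membrane return bile acids from portal blood. The bile acid receptor Nr1h4 (FXR) induces Nr0b2 (SHP), which represses Cyp7a1 and Cyp8b1.

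Baat and Cyp7b1 fell in the knockout livers, and no member rose. At an adjusted p under 0.05 the count was 2 of 30 members, against 1.15% of all genes tested (limma with Benjamini-Hochberg adjustment over all genes). Of all genes 0.717% fell and 0.433% rose. At an unadjusted p under 0.05 there were 10 members (33.3%), against 16.7% of all genes. Of these 9 were lower and 1 higher, against 8.06% lower and 8.61% higher among all genes. The groups did not overlap for 7 members, against 10.7% of all genes. Knockout arrays were all lower for 6 of them, Baat, Cyp7b1, Cyp27a1, Hsd17b4, Acox2 and Slco1a1, against 5.49% of all genes, and all higher for 1, Abcc4, against 5.26%. The median difference was -0.13 log2 units over the members and 0.03 over all genes. The member median was -0.07 when either knockout mouse 3 or wild-type mouse 1 was left out, -0.06 when both mouse 1 arrays were, -0.19 against the controls with Cre and -0.04 against those without. Of the members 27 were brighter than the median gene. Among those brighter genes the median difference was -0.02, 9.5% were separated downward and 13.2% were lower at an unadjusted p under 0.05. All values are deposited RMA values on the log2 scale, on which 1 unit is a doubling, each difference carries the standard error (SE) of the limma fit, and n is 4 mice a group unless control classes are separated. Whether the mice were littermates is not in the labels.

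**Figure D1:**
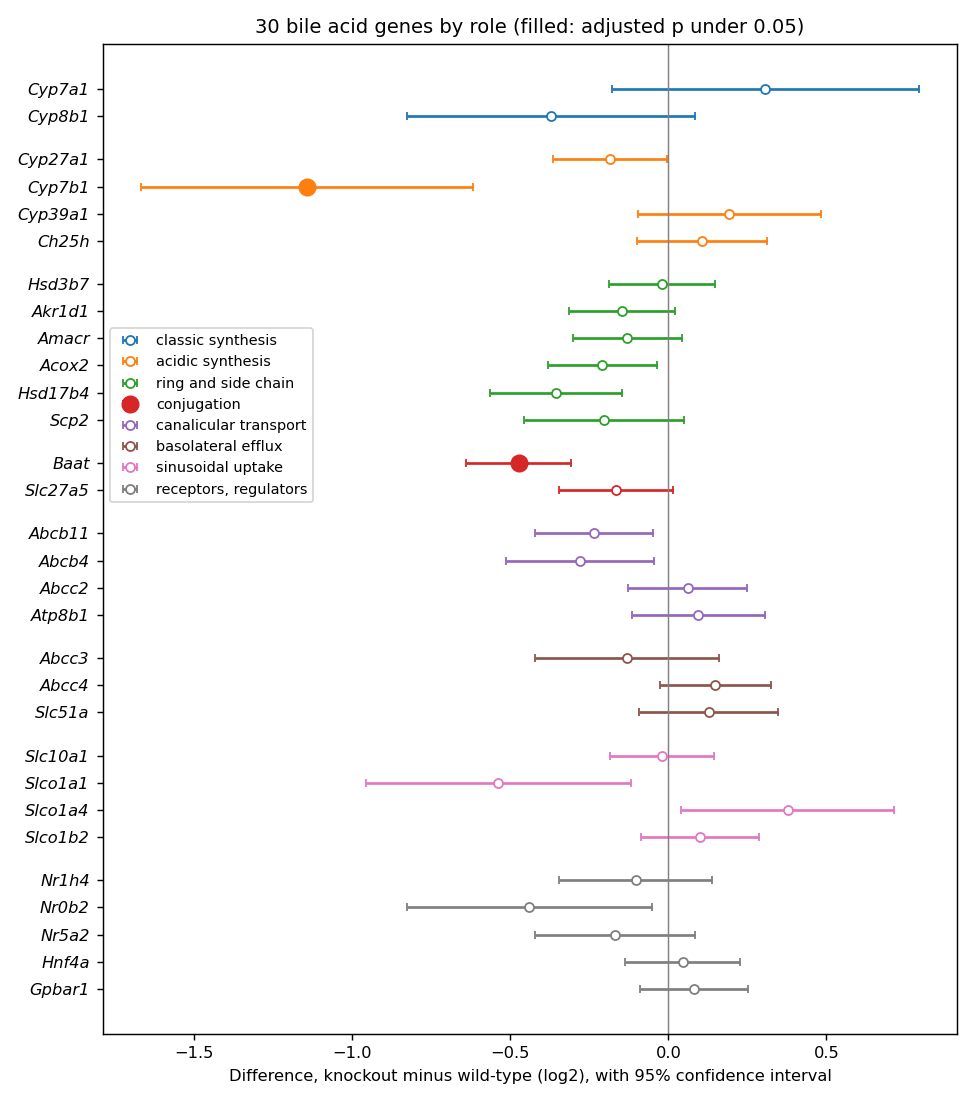
Difference of each of the 30 measured bile acid genes, knockout minus wild-type, on the log2 scale (x axis), by role (y axis and colour), with 95% confidence intervals from limma over 4 knockout and 4 wild-type livers. Baat at -0.47 and Cyp7b1 at -1.14, drawn filled, are the 2 members past the adjusted threshold.

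The targeted gene lay in the direction of the labels. Sco1 read 7.48, 7.62, 7.72 and 7.56 in knockout mice 1 to 4, against 7.84, 7.93, 8.19 and 8.04 in wild-type mice 1 to 4, a difference of -0.41 ± 0.09 (SE) that missed the threshold over all genes (limma, adjusted p = 0.0633). Which exons its probes read is not known. Arrays correlated at 0.9915 to 0.9954 within groups across genes. Of 12 hepatocyte markers none passed (0 also at an unadjusted p under 0.05), and their mean level was 13.00 to 13.05 in knockout and 13.02 to 13.05 in wild-type livers. These mean levels lie close to the highest value on any array, 13.88, so a change in hepatocyte content could be missed. Of 10 cholangiocyte markers none passed (2 at an unadjusted p under 0.05), with mean levels of 6.31 to 6.55 in knockout and 6.41 to 6.53 in wild-type livers. Macrophage markers averaged 8.67 to 9.15 in knockout and 8.44 to 8.95 in wild-type livers (12 genes, of which Gpnmb rose), and lymphocyte markers 6.14 to 6.45 in knockout and 5.95 to 6.09 in wild-type livers (9 genes, none past the threshold). Their part in the results below was not tested. In whole liver RNA, fewer cells of a type and less RNA per cell cannot be told apart.

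Baat, which encodes the enzyme that conjugates bile acids, had the smallest p of all members. It read 9.95, 10.04, 9.83 and 9.90 in knockout livers, against 10.39, 10.40, 10.47 and 10.34 in wild-type livers. The groups were separated by a gap wider than the range of either. The knockout mean of 9.93 ± 0.09 stood against a wild-type mean of 10.40 ± 0.05 (SD), a difference of -0.47 ± 0.08 that left 72.0% of the wild-type level (limma, adjusted p = 0.0176). The call was lost when knockout mouse 3 (adjusted p = 0.051), wild-type mouse 2 (0.0565) or wild-type mouse 3 (0.0539) was left out, and kept with each of the other 5 arrays left out. Slc27a5, the bile acid CoA ligase that works just before Baat, stood at -0.17 ± 0.08 (limma, adjusted p = 0.336). Its knockout values of 12.01, 12.19, 12.20 and 12.30 overlapped wild-type values of 12.42, 12.32, 12.37 and 12.26, with knockout mouse 4 inside the wild-type range.

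Cyp7b1, the oxysterol hydroxylase of the acidic route, had the largest difference of any member. It read 9.29, 8.88, 8.24 and 9.51 in knockout livers, against 10.53, 10.04, 10.04 and 9.89 in wild-type livers. Knockout mouse 3 was lowest, more than 1 unit below knockout mouse 4, and the groups did not overlap. The difference of -1.14 ± 0.24 left 45.3% of the wild-type level (limma, adjusted p = 0.0491). Leaving out any array other than knockout mouse 4 took the adjusted p past the threshold, to between 0.063 and 0.116, while the difference stayed between -1.24 and -0.90. The other genes of the acidic route did not pass. Cyp27a1 read 11.96, 12.03, 11.73 and 11.96 in knockout livers and 12.15, 12.08, 12.12 and 12.06 in wild-type livers, a separation of small size, -0.19 ± 0.08 (limma, adjusted p = 0.29). Cyp39a1, which hydroxylates an oxysterol made mainly in the brain, stood at 0.19 ± 0.13. Ch25h, a cholesterol hydroxylase, was dim, with a knockout mean of 5.26 and a wild-type mean of 5.15.

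**Figure D2:**
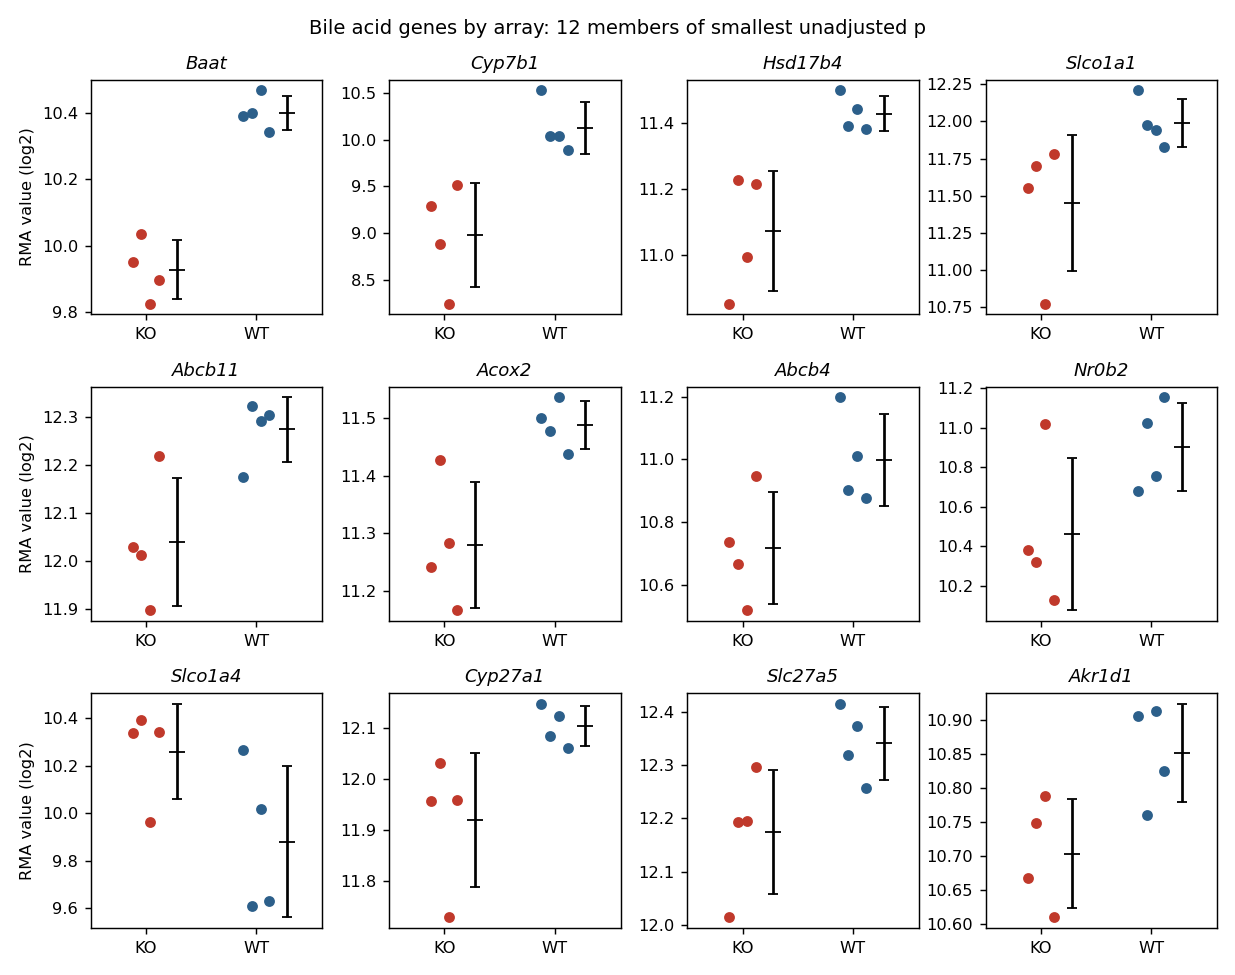
RMA values on the log2 scale (y axis, a separate range in each panel) of the 12 members of smallest unadjusted p in 4 knockout (KO, red) and 4 wild-type (WT, blue) livers, 1 point per mouse, with the mean and SD beside each group. Baat and Cyp7b1 are fully separated, and in Slco1a1 knockout mouse 3, at 10.78, lies far below the other knockout mice.

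The classic route showed no call, and its enzymes lay on opposite sides of 0. Cyp7a1, the rate-limiting enzyme, read 10.78, 11.02, 10.14 and 10.13 in knockout livers, against 10.56, 9.93, 10.46 and 9.89 in wild-type livers. The groups overlapped, and values in each group fell into a higher and a lower pair. The difference was 0.31 ± 0.22, with a 95% confidence interval from -0.18 to 0.79 (limma, adjusted p = 0.512). Leaving out knockout mouse 2 gave 0.14, and leaving out wild-type mouse 4 gave 0.20. Cyp8b1, the hydroxylase that directs synthesis to cholic acid, read 10.64, 11.48, 11.50 and 10.52 in knockout livers, against 11.33, 11.49, 11.46 and 11.34 in wild-type livers. Knockout mice 2 and 3 sat at the top of the wild-type range and knockout mice 1 and 4 below it, which gave a difference of -0.37 ± 0.21 (95% interval -0.83 to 0.09; limma, adjusted p = 0.395). It was -0.24 without knockout mouse 1, -0.20 without knockout mouse 4 and -0.19 in the fit that held Y-linked signal as a covariate.

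All 6 enzymes of ring change and side-chain shortening had negative differences, from -0.36 to -0.02, of which that of Hsd3b7 turned to 0.03 after renewed quantile normalization, and none passed (limma; 2 at an unadjusted p under 0.05, Hsd17b4 and Acox2). Of all genes tested 42.8% had a negative difference, and 55.5% of the brighter ones. Hsd17b4, the peroxisomal bifunctional enzyme, read 10.85, 11.23, 10.99 and 11.22 in knockout livers, against 11.50, 11.39, 11.44 and 11.38 in wild-type livers. The groups did not overlap, and the difference was -0.36 ± 0.10 (limma, adjusted p = 0.102). Acox2, the branched-chain acyl-CoA oxidase that acts on bile acid precursors, read 11.24, 11.43, 11.28 and 11.17 in knockout livers, against 11.50, 11.48, 11.54 and 11.44 in wild-type livers. These values were also separated, by a narrow margin, at -0.21 ± 0.08 (limma, adjusted p = 0.217). Scp2, the thiolase of this pathway, stood at -0.20 ± 0.11, with knockout mouse 3 at 12.14 and every other array at 12.57 or above. Akr1d1, the reductase of the steroid ring, read 10.67, 10.75, 10.79 and 10.61 in knockout livers, against 10.91, 10.76, 10.91 and 10.83 in wild-type livers, and the groups overlapped at wild-type mouse 2. It stood at -0.15 ± 0.08 and the racemase Amacr at -0.13 ± 0.08, while Hsd3b7, which oxidises the ring before it, stood at -0.02 ± 0.08 (95% interval -0.19 to 0.15). Of other peroxisomal genes, the thiolase Acaa1b stood at -0.36 ± 0.11 and the transporter Abcd3 at -0.17 ± 0.08. Knockout arrays lay below wild-type arrays for each, with no call (limma, adjusted p = 0.147 and 0.318). The groups overlapped for the thiolase Acaa1a, at -0.26 ± 0.14, and for the acyl-CoA synthetase Slc27a2, at -0.002 ± 0.08 (limma, adjusted p = 0.386 and 0.993).

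Genes of canalicular secretion did not pass. Abcb11, the bile salt export pump, read 12.03, 12.01, 11.90 and 12.22 in knockout livers, against 12.17, 12.32, 12.29 and 12.30 in wild-type livers. Knockout mouse 4 alone reached the wild-type range, and the difference was -0.23 ± 0.08 (limma, adjusted p = 0.205). Abcb4, which moves phospholipid into bile, read 10.74, 10.67, 10.52 and 10.95 in knockout livers, against 11.20, 10.90, 11.01 and 10.88 in wild-type livers, again with only knockout mouse 4 inside the wild-type range. It stood at -0.28 ± 0.11 (limma, adjusted p = 0.226). Abcc2, which exports conjugated organic anions, stood at 0.06 ± 0.09. Atp8b1, a flippase of the canalicular membrane, stood at 0.10 ± 0.10, with knockout mouse 4 at 10.99 above every other array of either group.

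Export across the basolateral membrane likewise gave no call. Abcc4, an anion exporter, read 6.94, 6.95, 7.19 and 6.99 in knockout livers and 6.84, 6.93, 6.86 and 6.85 in wild-type livers. The groups were separated by a narrow margin, at 0.15 ± 0.08 (limma, adjusted p = 0.376). Abcc3 stood at -0.13 ± 0.13 and Slc51a, a subunit of the organic solute transporter, at 0.13 ± 0.10, which was dim, with a knockout mean of 5.65 and a wild-type mean of 5.52.

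Among the uptake transporters, Slc10a1, the sodium-coupled carrier NTCP, differed by -0.02 ± 0.07 (95% interval -0.18 to 0.14). Its knockout mean of 13.09 and wild-type mean of 13.11 lie close to the highest value on any array, 13.88. Slco1a1 and Slco1a4, organic anion carriers of the same gene cluster on chromosome 6, lay on opposite sides of 0. Slco1a1 read 11.56, 11.70, 10.78 and 11.78 in knockout livers, against 12.21, 11.98, 11.94 and 11.83 in wild-type livers. The groups were separated, with knockout mouse 3 far below the rest, at -0.54 ± 0.19 (limma, adjusted p = 0.196). Leaving out knockout mouse 3 gave -0.31. Slco1a4 read 10.34, 10.39, 9.96 and 10.34 in knockout livers, against 10.27, 9.61, 10.02 and 9.63 in wild-type livers. These overlapped, and the difference was 0.38 ± 0.15 (limma, adjusted p = 0.249). Slco1b2, a liver-specific carrier, stood at 0.10 ± 0.08. The probe sets of these related carriers may read each other. A carrier outside the members fell: Slc10a5, an orphan relative of Slc10a1, read 10.18, 10.62, 10.59 and 10.52 in knockout livers, against 10.91, 11.15, 11.01 and 11.15 in wild-type livers. Its difference was -0.58 ± 0.11 (limma, adjusted p = 0.0333), and the adjusted p was 0.0539 to 0.100 with any 1 array other than knockout mouse 2 and wild-type mouse 1 left out.

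The receptors and regulators did not pass. Nr0b2, the repressor SHP, read 10.38, 10.32, 11.02 and 10.13 in knockout livers, against 10.68, 11.02, 10.76 and 11.15 in wild-type livers. Knockout mouse 3 lay inside the wild-type range and the other knockout mice below it, which gave -0.44 ± 0.18 (limma, adjusted p = 0.245, and 0.0721 without knockout mouse 3, where the difference was -0.62). Nr1h4 stood at -0.10 ± 0.11, Nr5a2 (LRH-1), which drives Cyp8b1 and Nr0b2, at -0.17 ± 0.12, and Hnf4a, a factor of hepatocyte identity, at 0.04 ± 0.08. The membrane bile acid receptor Gpbar1 was dim and stood at 0.08 ± 0.08. The bile acid feedback receptor Fgfr4, outside the members, averaged 9.51 ± 0.02 in knockout and 9.75 ± 0.07 in wild-type livers (SD), a difference of -0.24 ± 0.07 with separated groups (limma, adjusted p = 0.129), while its partner Klb stood at -0.03 ± 0.16.

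Promoters are shown for members that the regulators act on or that lay on opposite sides of 0. RefSeq windows on GRCm38.p6 were matched for 22 of the 31 listed genes, not for Baat or Cyp7b1, and each stretch is the 250 bases before the start site. Nr0b2 (chr4:133553126-133553375, plus strand) and Cyp8b1 (chr9:121916306-121916555, minus strand) are known targets of Nr5a2, and capitals mark matches to CAAGGNCA, the extended half-site of that receptor. Slco1a1 (chr6:141946963-141947212, minus strand) and Slco1a4 (chr6:141856221-141856470, minus strand) are set side by side as neighbours, and capitals mark AGGTCA, the half-site of many nuclear receptors, on either strand.
Nr0b2: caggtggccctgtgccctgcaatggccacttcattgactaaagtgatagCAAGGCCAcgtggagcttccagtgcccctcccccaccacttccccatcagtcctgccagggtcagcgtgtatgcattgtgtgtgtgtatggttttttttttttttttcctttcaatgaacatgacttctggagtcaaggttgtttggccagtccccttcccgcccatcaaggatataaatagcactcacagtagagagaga
Cyp8b1: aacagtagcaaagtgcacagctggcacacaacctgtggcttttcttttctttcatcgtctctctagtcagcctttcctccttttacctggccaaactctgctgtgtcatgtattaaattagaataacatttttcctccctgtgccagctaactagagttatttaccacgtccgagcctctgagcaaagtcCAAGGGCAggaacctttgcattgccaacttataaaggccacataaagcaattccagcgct
Slco1a1: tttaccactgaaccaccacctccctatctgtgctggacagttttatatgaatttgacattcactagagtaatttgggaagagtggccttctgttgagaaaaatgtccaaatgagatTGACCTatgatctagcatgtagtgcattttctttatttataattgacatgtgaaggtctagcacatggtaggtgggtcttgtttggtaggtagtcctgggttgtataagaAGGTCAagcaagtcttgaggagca
Slco1a4: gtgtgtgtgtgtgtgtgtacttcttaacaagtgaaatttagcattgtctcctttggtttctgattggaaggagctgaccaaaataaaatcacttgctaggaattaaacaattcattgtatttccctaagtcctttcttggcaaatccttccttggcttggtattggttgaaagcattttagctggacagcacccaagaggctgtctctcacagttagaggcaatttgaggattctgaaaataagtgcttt
CAAGGNCA, searched on both strands, occurred in 3 of 27 member windows (Nr0b2, Cyp8b1 and Slc51a), against 6.71% of 32851 windows of all genes. AGGTCA, which CAAGGNCA holds when N is T, occurred in 11 of the 27, against 16.3% of all, and had 2 matches in Slco1a1 and none in Slco1a4. TTATGNAA, the D-box of clock factors such as DBP, occurred in 3 (Akr1d1, Cyp27a1 and Slc10a1), against 3.38% of all. TGTTTAC, a FOXA core, occurred in 0, against 3.65% of all, and TTGCGCAA, a C/EBP core, in 0, against 0.183%. Longer paired elements of FXR, HNF4 and HNF1 had no match in the 27. No overlap with another motif was removed. A match describes letters and shows no binding.

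Most members (76.7%) varied more among knockout than among wild-type livers, as did most genes. The SD was larger in the knockout group for 23 of 30 members, against 58.8% of all genes and 64.7% of those brighter than the median gene, and more than 2 times larger for 10 members, against 21.2% of all genes. The median ratio of knockout to wild-type SD was 1.58 over members and 1.17 over all genes. Neither this ratio nor the share above 2 times was set against brighter genes alone. Cyp8b1 had the widest contrast, with an SD of 0.53 among knockout and 0.08 among wild-type livers, followed by Atp8b1 at 0.19 and 0.03 and Scp2 at 0.25 and 0.05. Knockout mouse 4 stood apart from its group in Atp8b1, and knockout mouse 3 in Scp2. Slco1a4, Slco1b2, Nr1h4, Slc51a, Gpbar1, Abcc3 and Cyp39a1 varied less in the knockout group. The mice at the extremes differed from gene to gene. Knockout mouse 3 was lowest of its group in 10 members and highest in 8, and knockout mouse 4 lowest in 11 and highest in 10.

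**Figure D3:**
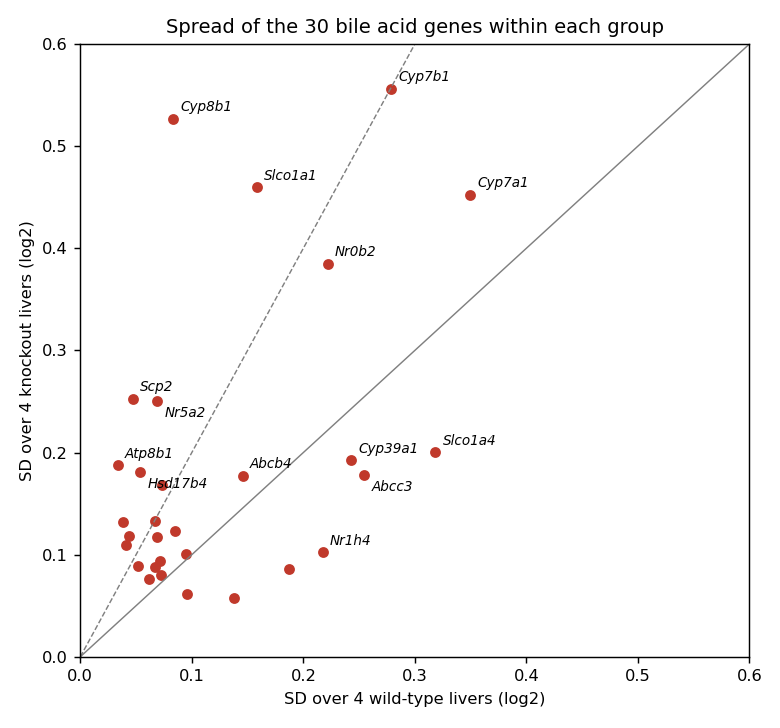
Standard deviation (log2 units) of each of the 30 members over 4 knockout livers (y axis) against that over 4 wild-type livers (x axis), with lines of equal spread (solid) and of 2 times the wild-type spread (dashed). Of the members 23 lie above the solid line, with Cyp8b1 farthest from it (SD of 0.53 among knockout and 0.08 among wild-type livers).

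The 2 control classes were also set against each other. Slco1a4 read 10.27 and 10.02 in the 2 controls with Cre and 9.61 and 9.63 in those without, a difference of 0.52 ± 0.16, and Cyp7a1 read 10.56 and 10.46 with Cre and 9.93 and 9.89 without, a difference of 0.60 ± 0.27. Neither passed over all genes (limma with 3 groups, adjusted p = 0.99996 for each), and the count of calls between control classes was 0 of 22180 genes (671 genes, or 3.03%, at an unadjusted p under 0.05, of which 2 are these members). Both control arrays with Cre lay above both without it in 14 members and below in 4, against 16.1% of all genes above and 14.6% below (15.8% and 13.2% of the brighter genes). Members share these 4 arrays and are not independent of each other. Set against the controls with Cre, which share the transgene, knockout Cyp7a1 differed by 0.0065 ± 0.23 and Slco1a4 by 0.12 ± 0.14. Set against the controls without Cre, they stood at 0.61 ± 0.23 and 0.64 ± 0.14. Nr0b2 stood at -0.26 ± 0.20 and -0.62 ± 0.20 in these 2 comparisons. Baat stood at -0.50 ± 0.10 against controls with Cre and -0.44 ± 0.10 against those without, and Cyp7b1 at -1.30 ± 0.29 and -0.98 ± 0.29. With 2 controls a class no member passed in either comparison (limma; 0.131% and 0.212% of all genes passed), and the comparisons share the knockout arrays. The 2 classes also differ in the number of floxed alleles, so Cre and allele number cannot be told apart. Cre may also have removed the 1 floxed Sco1 copy of the controls that carry it, which was not tested.

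**Figure D4:**
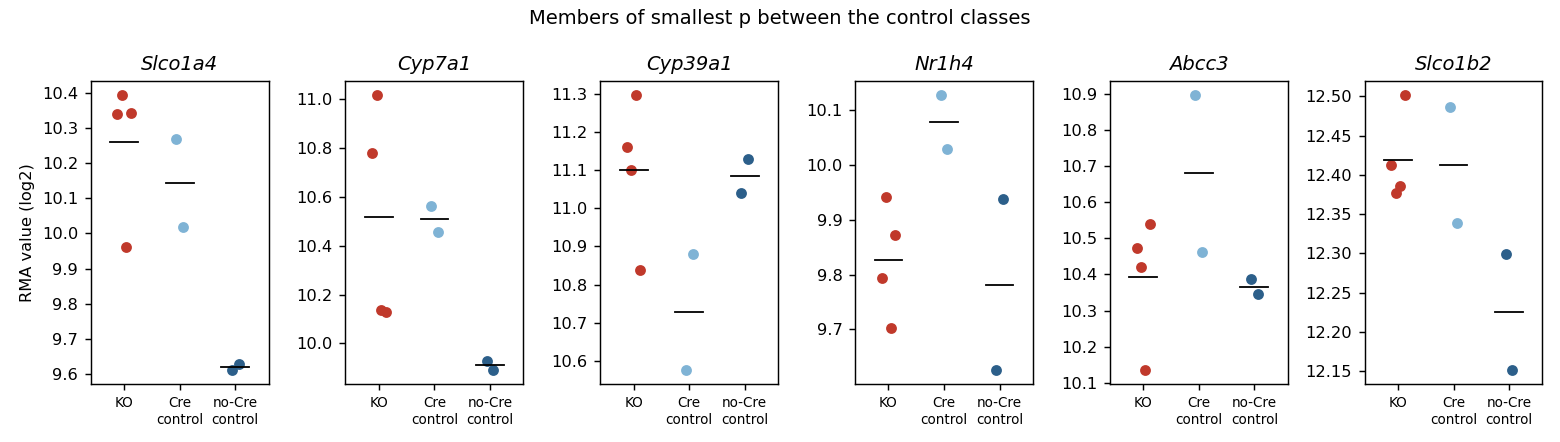
RMA values on the log2 scale (y axis, a separate range in each panel) in 4 knockout livers (KO), 2 controls with Cre and 1 floxed allele, and 2 controls without Cre, for the 6 members of smallest p between the control classes, with bars at the means. Controls with Cre averaged 10.51 for Cyp7a1 and controls without Cre 9.91, against 10.52 in knockout livers.

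In adult mice Cyp7b1 and Slco1a1 are known to be expressed more in male than in female liver, and Slco1a4 more in female liver. Whether these or the other sex biases below are present at 27 days was not tested. The labels give no sex. The Y-linked genes Uty, Eif2s3y and Kdm5d read 7.23, 7.49 and 7.37 in knockout mouse 4 and between 8.40 and 9.02 in the other 7 mice, and Xist read 4.59 to 5.06 in all 8. Knockout mouse 4 had the highest Cyp7b1 and Slco1a1 of its group, and with the Y-linked level as a covariate Cyp7b1 stood at -1.33 (limma, adjusted p = 0.0419) and Baat at -0.46 (adjusted p = 0.044). As the Y-linked level was low in knockout mouse 4 alone, this covariate largely marks that array and cannot adjust for sex. Of 13 measured genes listed as male-biased, apart from these members, none passed (limma, with 6 at an unadjusted p under 0.05). Negative differences were found for 11, and the median was -0.32. Mean levels were 9.17 to 10.20 in knockout and 10.12 to 10.36 in wild-type livers. This list includes Ghr, which is also counted in the growth hormone axis and whose male bias was not tested. Selenbp2, a selenium-binding protein gene, stood at -0.65 ± 0.14 (adjusted p = 0.0543), Ugt2b38, a glucuronosyltransferase, at -1.09 ± 0.30, and Nudt7, a peroxisomal CoA diphosphatase, at -0.43 ± 0.13. Knockout mouse 3, lowest in Cyp7b1 and Slco1a1, was also the lowest of all arrays in each of these 3 genes. The same held for Hsd3b5, Elovl3, Mup20, Cyp2d9, C6, Cyp2u1, Cyp4a12a and Cyp4a12b of this list, but not for Moxd1 or Ghr. The list's median was not computed without this mouse. Of 14 female-biased genes Cyp2c69 fell by 0.89 ± 0.16 (limma, adjusted p = 0.03), none rose, and the median was 0.05. Among knockout livers, mouse 3 read highest in Cyp2b9 (12.61), Cyp2b13 (8.87), Cyp3a16, Cyp2a4, Acot3, Sult3a1, Sult1e1, Hao2, Prom1, Hamp2 and Cyp2c69. In Fmo2, Cux2 and Atp6v0d2 another knockout mouse read highest. The part of these genes' differences in that of Cyp7b1 was not tested.

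Cyp7a1 is known to cycle over the day under clock factors such as DBP. Dbp read 9.66 in knockout mouse 1 and 9.86 in wild-type mouse 1, against 6.87 to 7.33 in the other knockout and 7.08 to 7.33 in the other wild-type livers. Both mouse 1 livers were in the upper pair of their group for Cyp7a1, beside knockout mouse 2 and wild-type mouse 3, whose Dbp was low. Of 16 clock genes none passed (limma; 1 at an unadjusted p under 0.05), with a median of 0.03. Without both mouse 1 arrays Cyp7a1 stood at 0.34, Cyp7b1 at -1.11 (limma, adjusted p = 0.123) and Baat at -0.49 (adjusted p = 0.072), so with 3 mice a group no member passed.

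Beyond the members, 3 further lists of the pathway gave Slc10a5 as their single call. Of 21 other enzymes of bile acid and sterol metabolism none passed (limma; 6 at an unadjusted p under 0.05), with a median of -0.07. Sult2a8, a bile acid sulfotransferase of mouse liver, stood at -0.39 ± 0.09 (adjusted p = 0.0633), Stard4, a cholesterol carrier, at -0.31 ± 0.08 (adjusted p = 0.0883), and Cyp46a1, a cholesterol hydroxylase known from the brain, at 0.45 ± 0.13 (adjusted p = 0.122). The groups were separated for all 3. Cyp2c70, which makes the muricholic acids of mice, stood at -0.04 ± 0.07. Of 20 other transporters 1 fell and none rose, with a median of -0.04, and of 31 regulators none passed (limma; 3 at an unadjusted p under 0.05), with a median of -0.002.

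**Figure D5:**
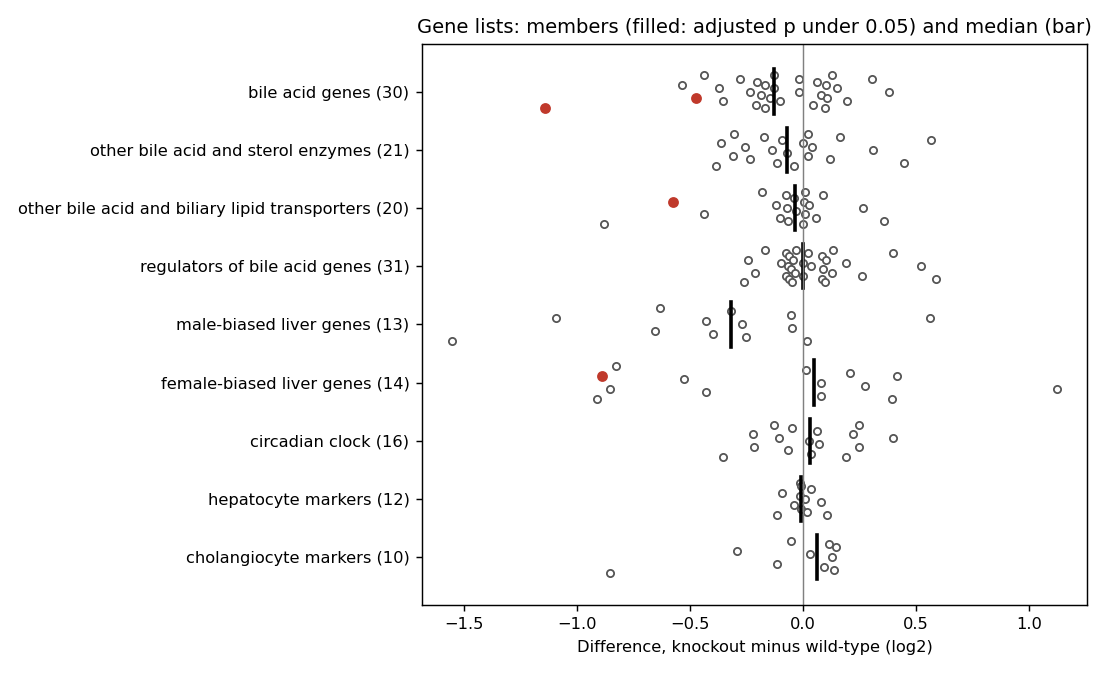
Differences, knockout minus wild-type, on the log2 scale (x axis) of the measured genes of 9 lists (y axis, number of genes in brackets), 1 circle per gene, filled where the adjusted p was under 0.05, with a bar at each list's median. The bile acid genes centre on -0.13, while hepatocyte markers cluster around -0.01. The male-biased genes centre on -0.32, and knockout mouse 3 read lowest of all arrays in most of them.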

How the data were processed

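Liver RNA was measured on Affymetrix whole-transcript arrays. The authors deposited log2 values made by RMA (oligo 1.24, as the submitters' processing notes name it). RMA equalises arrays by quantiles and summarises probes. The log2 scale was inferred from the values, 1.28 to 13.88. The chip definition and genome build are unknown here. Of 39137 probe sets 23521 had 1 gene symbol, 1814 several and 13802 none in the platform annotation. The brightest probe set stood for each of 22180 genes.

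Differences came from limma 3.58.1 (R 4.3.3), with lmFit, eBayes, 2 groups, two-sided tests and Benjamini-Hochberg adjustment over all genes at a threshold of 0.05. A 3-group fit separated the control classes. The fit was also run on simulated data with independent genes and equal spread in both groups. That setting differs from these livers, so it gives no assurance about these calls. The members, the 18 other lists and the tests were chosen with earlier results of these data known. Values in every array are given for called members and the 12 of smallest unadjusted p. From other lists, called genes and up to 3 of smallest p are named, beside Sco1, Dbp and sex-linked genes. Values of Cyp7a1, Cyp8b1, Scp2, Atp8b1, Abcc4, Acaa1a, Acaa1b, Abcd3, Slc27a2, Cyp2c70 and Klb were added after they were seen. The further male-biased and female-biased genes were also named after their values were seen. Groups follow the titles, which the source labels match. P-values weigh a difference against the spread between mice within groups, which the fit takes as equal in both groups. The number of arrays limits precision. Alternatives were other variance models, scalings, filters, probe set choices, covariates, control classes and arrays left out.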

Additional observations from a re-analysis of the deposited data

Results flagged for a closer look

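In 3 of 64 groups of 4 arrays (the members, Sco1 and Slc10a5 in each group) a single array stood far from the other 3, by Dixon's criterion at the 95% level. Chance gives about 1 in 20 such groups. Atp8b1 read 10.99 in knockout mouse 4 and 10.59 to 10.64 in the other knockout mice. Slco1a4 read 9.96 in knockout mouse 3 and 10.34 to 10.39 in the other knockout mice. Hnf4a read 11.96 in wild-type mouse 3 and 12.14 to 12.16 in the other wild-type mice.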

How the results depend on the processing

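Of 30 members 24 kept their sign under all 23 alternatives (22 for 3 dim members), and no member outside Baat and Cyp7b1 passed in any. The count of members that fell, 2 as reported, was 1 with a trended robust variance, renewed quantile normalization, all probe sets tested or control classes weighted equally, the remaining call being Baat in each. It was 0 with a minimum fold of 1.2, either control class alone, or without both mouse 1 arrays, and 0 to 2 with 1 array left out. No member rose under any alternative. Baat passed in 16 alternatives (adjusted p from 0.00687 to 0.999996), Cyp7b1 in 8 (0.0296 to 0.492) and Slc10a5 in 12. The count of falls in the 3 further bile acid lists, 1 as reported, was 2 with a trended robust variance or genes of mean 5 or more, 3 among genes above the median level, 0 with a minimum fold, the Y-linked covariate, either control class or without both mouse 1 arrays, and 0 to 1 with 1 array left out. Sco1, at -0.41, passed with a trended robust variance (adjusted p = 0.0464), genes of mean 5 or more (0.043) and genes above the median level (0.036). With the replicate block (mouse number), 2 members fell (Baat adjusted p = 0.0471, Cyp7b1 0.0347). It changed no other call among the members. Deviations of same-numbered mice correlated at 0.273, -0.022, 0.031 and -0.102, so numbers were not taken as pairs. Knockout mouse 1 alone correlated most with the wild-type mouse of its own number. Calls over all genes, 96 higher and 159 lower, were 68 and 142 with the block, 86 and 271 after centring, 159 and 300 with a trended robust variance, and 11 and 10 with the minimum fold. Calls between control classes were 0 under 4 alternatives chosen after seeing the data. Of the members that changed sign, Hsd3b7 turned to 0.031 (quantile), 0.00056 (array weights), 0.026 (Y-linked covariate) and 0.0034 (controls without Cre). It lay between -0.043 and 0.023 with 1 array left out. Slc10a1 turned to 0.0070 (quantile), 0.024 (Y-linked covariate) and 0.030 (controls without Cre), and between -0.046 and 0.016 with 1 array left out. Abcc3 turned from -0.13 to 0.026 and Nr1h4 from -0.10 to 0.046 against controls without Cre. Against controls with Cre they stood at -0.29 and -0.25. Atp8b1 turned from 0.10 to -0.011 (Y-linked covariate), and Hnf4a to -0.0023 without wild-type mouse 3 (up to 0.081 with 1 array left out). The cause of these changes was not tested. Quantile normalization moved the median of all genes by -0.018 and centring by -0.03.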

Other observations

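Genes that mark positions along the liver lobule gave no call. Of 13 pericentral genes none passed (limma; 2 at an unadjusted p under 0.05), with a median of -0.14, and of 10 periportal genes none passed (2 at an unadjusted p under 0.05), with a median of -0.03. The mitochondrial aldehyde dehydrogenase gene Aldh1b1, in the periportal list, stood at 0.56 ± 0.12 (adjusted p = 0.0537). Slc22a7, an organic anion transporter of hepatocytes, read 7.80 in knockout mouse 1 and 9.31 to 9.34 in the other knockout livers, against 9.76 to 9.89 in wild-type livers. Sult1e1, the estrogen sulfotransferase, stood at 1.12 ± 0.31 (adjusted p = 0.112), with knockout mouse 1, at 5.91, inside the wild-type range of 5.29 to 6.21. Ppargc1a, a coactivator of mitochondrial genes, stood at 0.52 ± 0.18 (adjusted p = 0.184).

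Of the markers of other cell types, Gpnmb rose by 1.23 ± 0.12 (limma, adjusted p = 0.00226) among 12 macrophage markers, whose median was 0.14. None of 9 lymphocyte, 8 neutrophil, 12 stellate cell and 10 sinusoidal endothelial markers passed (limma; 3, 1, 0 and 2 at an unadjusted p under 0.05), with medians of 0.21, 0.11, -0.03 and 0.08. None of 9 genes of the growth hormone axis (0 at an unadjusted p under 0.05), 7 fetal genes (2) and 4 sex-linked genes (0) passed, with medians of -0.05, 0.03 and -0.31.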
